A study of Mus musculus with 12 samples.

Results

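The genes described here are BNIP3 and 7 further genes of mitophagy, the removal of mitochondria by autophagy. They were chosen by symbol, as the rows Bnip3, Bnip3l, Fundc1, Pink1, Sqstm1, Map1lc3b, Gabarapl1 and Becn1 of a count table of 32544 genes, and all 8 passed the filter on low counts, which kept 14285 genes. RNA was sequenced from bone marrow-derived macrophages (BMDMs) 24 h after seeding and from NIH/3T3 fibroblasts, an immortalised mouse line, after 72 h in medium that BMDMs had conditioned for 24 h. BMDMs labelled WT came from LysMCre mice, and BMDMs labelled PHD2cko from mice with a conditional knockout of the oxygen sensor PHD2. Both carry Cre recombinase under the lysozyme M promoter, which is active in myeloid cells. The fibroblasts had been starved in low serum before the conditioned medium was added and carry no deletion themselves. Each of the 4 groups (BMDM WT, BMDM PHD2cko, 3T3 in WT medium, 3T3 in PHD2cko medium) has 3 libraries. The sources do not say which of these came from separate mice or cultures, so p-values measure only the spread between these libraries. The oxygen condition of the sequenced cultures is not named.

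Library totals ran from 15516465 to 25199770 estimated counts. Egln1, the gene that encodes PHD2, was at 55.8, 54.7 and 55.6 counts per 1e6 counts (CPM) in the WT BMDM libraries and at 68.8, 68.3 and 71.6 CPM in the libraries labelled PHD2cko. The label therefore went with more Egln1 mRNA and not with less. The table has 1 value per gene and none per exon, so these values do not check the label, and the groups are named by label throughout. The 23 macrophage markers summed to between 41660 and 47420 CPM in BMDMs and the 12 fibroblast markers to between 32870 and 41190 CPM in 3T3 cells, in each case with no marker at 0. Replicate 1 of the fibroblasts in WT medium stood apart. A chi-square statistic of its counts, divided by its degrees of freedom, was 23.1 against replicate 2 and 24.9 against replicate 3, and lay between 1.97 and 7.90 for the other pairs within groups.

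In mitophagy, damaged or surplus mitochondria are marked, wrapped by a growing membrane and delivered to the lysosome. One route uses receptors that sit in the outer mitochondrial membrane and bind proteins of the ATG8 family directly. BNIP3, its close relative BNIP3L (also called NIX) and FUNDC1 are such receptors, and BNIP3 and BNIP3L are also members of the BCL2 protein family with a single BH3-like domain. The other route is opened by the kinase PINK1, which builds up on depolarised mitochondria and activates the ubiquitin ligase Parkin, after which adaptors such as p62, encoded by Sqstm1, link ubiquitin to the membrane. LC3B (Map1lc3b) and GABARAPL1 are ATG8 proteins, and beclin 1 (Becn1) is a subunit of the lipid kinase complex that starts the membrane. BNIP3 is a textbook target of the hypoxia-inducible factor HIF1, which PHD2 marks for degradation when oxygen is present.

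The stretch upstream of the start is shown for 4 genes, because HIF binds a short core, ACGTG or GCGTG, and these 4 genes pair different numbers of that core with different changes in mRNA. Sequences are from RefSeq on GRCm38.p6, in which 6 of the 8 genes have a promoter window of 300 bases (250 before and 50 after the annotated start). Each is printed 5′ to 3′ on the strand of the gene, and it ends at the base before the more upstream of the RefSeq and GENCODE starts. Capitals mark ACGTG or GCGTG on either strand, so that the letters CACGT and CACGC are matches on the other strand. Bnip3 is shown at chr7:138909520-138909756 (minus strand), Pink1 at chr4:138326308-138326546 (minus), Gabarapl1 at chr6:129532942-129533159 (plus) and Map1lc3b at chr8:121590188-121590360 (plus).
Bnip3: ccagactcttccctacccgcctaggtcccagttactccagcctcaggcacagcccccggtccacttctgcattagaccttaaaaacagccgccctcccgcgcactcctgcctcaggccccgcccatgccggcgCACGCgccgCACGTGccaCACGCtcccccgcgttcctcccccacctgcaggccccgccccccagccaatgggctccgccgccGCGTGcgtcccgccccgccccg
Pink1: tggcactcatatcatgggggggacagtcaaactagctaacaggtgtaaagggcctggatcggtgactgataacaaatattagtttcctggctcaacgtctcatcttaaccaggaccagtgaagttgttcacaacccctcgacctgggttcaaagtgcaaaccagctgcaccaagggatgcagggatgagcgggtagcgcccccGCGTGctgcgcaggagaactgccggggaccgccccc
Gabarapl1: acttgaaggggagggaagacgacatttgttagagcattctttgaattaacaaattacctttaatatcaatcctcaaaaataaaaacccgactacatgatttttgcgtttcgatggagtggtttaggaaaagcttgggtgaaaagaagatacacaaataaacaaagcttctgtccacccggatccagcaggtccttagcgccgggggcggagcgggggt
Map1lc3b: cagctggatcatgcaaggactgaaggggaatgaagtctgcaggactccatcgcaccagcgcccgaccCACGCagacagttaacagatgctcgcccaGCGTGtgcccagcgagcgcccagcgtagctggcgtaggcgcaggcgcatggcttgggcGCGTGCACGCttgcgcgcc
The Bnip3 window held 5 matches, at -117, -108, -107, -99 and -35 bases from the RefSeq start. The matches at -108 and -107 are the 2 strands of one CACGTG and overlap. The Map1lc3b window also held 5, all of them GCGTG, at -183, -154, -96, -91 and -64, of which the 4 upstream of the GENCODE start are printed. Pink1 held 1, at -47, and Gabarapl1, Fundc1 and Sqstm1 held 0. The Fundc1 window, chrX:17571958-17572257 on the minus strand, lies wholly downstream of the GENCODE start at 17572325. Its 0 therefore does not describe the stretch upstream of that start. Of 32851 promoter windows of this length, 43.8% held at least 1 match, 20.6% at least 2, and 1.66% at least 5. A match of 5 letters is a description of the window and not a binding site.

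**Figure D1:**
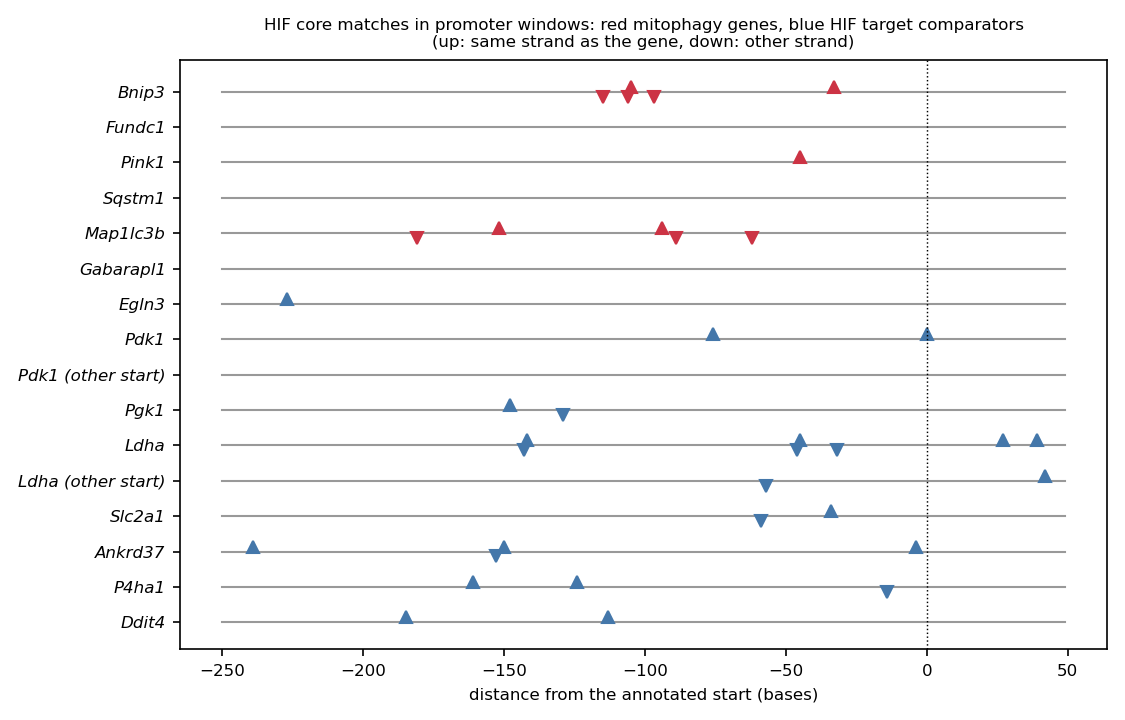
Matches to ACGTG or GCGTG in promoter windows of 300 bases, by distance of the match from the RefSeq start in bases, for the 6 mitophagy genes with a window (red) and for 8 HIF target genes listed for comparison (blue; Pdk1 and Ldha have a pair of starts). Bnip3 and Map1lc3b each hold 5 matches, Pink1 holds 1, and the lines of Fundc1, Sqstm1 and Gabarapl1 are empty. The Fundc1 window lies within the gene as GENCODE places it.

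The first question was how these genes differ between macrophages labelled PHD2cko and WT. Of the 8 genes, 4 rose in the libraries labelled PHD2cko at an adjusted p under 0.05 (quasi-likelihood test of edgeR, Benjamini-Hochberg adjusted over all genes): Bnip3, Bnip3l, Pink1 and Gabarapl1. None fell. Over all genes tested, 6.73% passed this threshold, 3.38% higher and 3.35% lower. The same 4 genes had every library labelled PHD2cko above every WT library, and the other 4 overlapped, where 31.9% of all genes did not overlap in either direction. The median log2 fold change was 0.11 over the 8 genes and 2.2e-04 over all genes.

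Bnip3 (ENSMUSG00000078566.8, chromosome 7 from 138890836 to 138909519, minus strand, coordinates on GRCm38) was at 34.5, 33.8 and 36.6 CPM in the WT libraries and at 66.2, 62.6 and 60.0 CPM in those labelled PHD2cko. The lowest library labelled PHD2cko was thus well above the highest WT library. It rose 1.80-fold, by 0.85 on the log2 scale (standard error, SE, 0.0732; 95% interval 0.69 to 1.01; adjusted p = 1.5e-05, edgeR), and stood at rank 48 of all genes by p. Bnip3l (ENSMUSG00000022051.15, chromosome 14 from 66985239 to 67008877) was at 159.7, 158.1 and 158.4 CPM in WT and at 186.8, 187.4 and 190.4 CPM in the libraries labelled PHD2cko. This related receptor rose by less, 0.25 on the log2 scale (SE 0.0410, adjusted p = 0.00272, edgeR), with little spread within either group. Fundc1 (ENSMUSG00000025040.13, chromosome X from 17556564 to 17572325), the receptor outside the BCL2 family, was at 54.6, 49.3 and 54.1 CPM in WT and at 50.7, 52.6 and 52.0 CPM in the libraries labelled PHD2cko. Its groups overlapped, and its log2 fold change was -0.02 with a 95% interval of -0.16 to 0.11.

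Pink1 (ENSMUSG00000028756.12, chromosome 4 from 138313409 to 138326307) was at 129.1, 128.6 and 133.6 CPM in WT and at 154.7, 160.7 and 150.4 CPM in the libraries labelled PHD2cko. The kinase rose by 0.25 on the log2 scale (SE 0.0510, adjusted p = 0.00980, edgeR), without overlap between the groups. With single libraries left out, its adjusted p lay between 0.0202 and 0.04997 (edgeR), so that it stayed past the threshold but came close to it. Gabarapl1 (ENSMUSG00000030161.8, chromosome 6 from 129533160 to 129542346) was at 140.9, 134.8 and 132.6 CPM in WT and at 148.7, 158.9 and 158.8 CPM in the libraries labelled PHD2cko, a log2 fold change of 0.19 (SE 0.0426, adjusted p = 0.0166, edgeR). This was the least secure of the 4 calls. It was lost when WT replicate 2 or 3, or replicate 2 or 3 labelled PHD2cko, was left out, with adjusted p between 0.0697 and 0.0821 in edgeR, and when genes were not filtered (0.0534).

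The remaining 3 genes did not pass the test, and their intervals bound the change. Sqstm1 (ENSMUSG00000015837.15, chromosome 11 from 50199366 to 50210827), which encodes the adaptor p62, was at 508.1, 501.2 and 518.4 CPM in WT and at 523.7, 512.7 and 531.9 CPM in the libraries labelled PHD2cko. Its log2 fold change was 0.04 with a 95% interval of -0.08 to 0.15. Map1lc3b (ENSMUSG00000031812.16, chromosome 8 from 121590361 to 121598760) was at 218.3, 219.3 and 225.8 CPM in WT and at 214.0, 214.0 and 227.8 CPM in the libraries labelled PHD2cko, with an interval of -0.14 to 0.10. Becn1 (ENSMUSG00000035086.13, chromosome 11 from 101285952 to 101302286) was at 111.2, 115.1 and 111.6 CPM in WT and at 116.0, 108.4 and 109.9 CPM in the libraries labelled PHD2cko, with an interval of -0.13 to 0.10. The groups overlapped for all 3 genes.

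**Figure D2:**
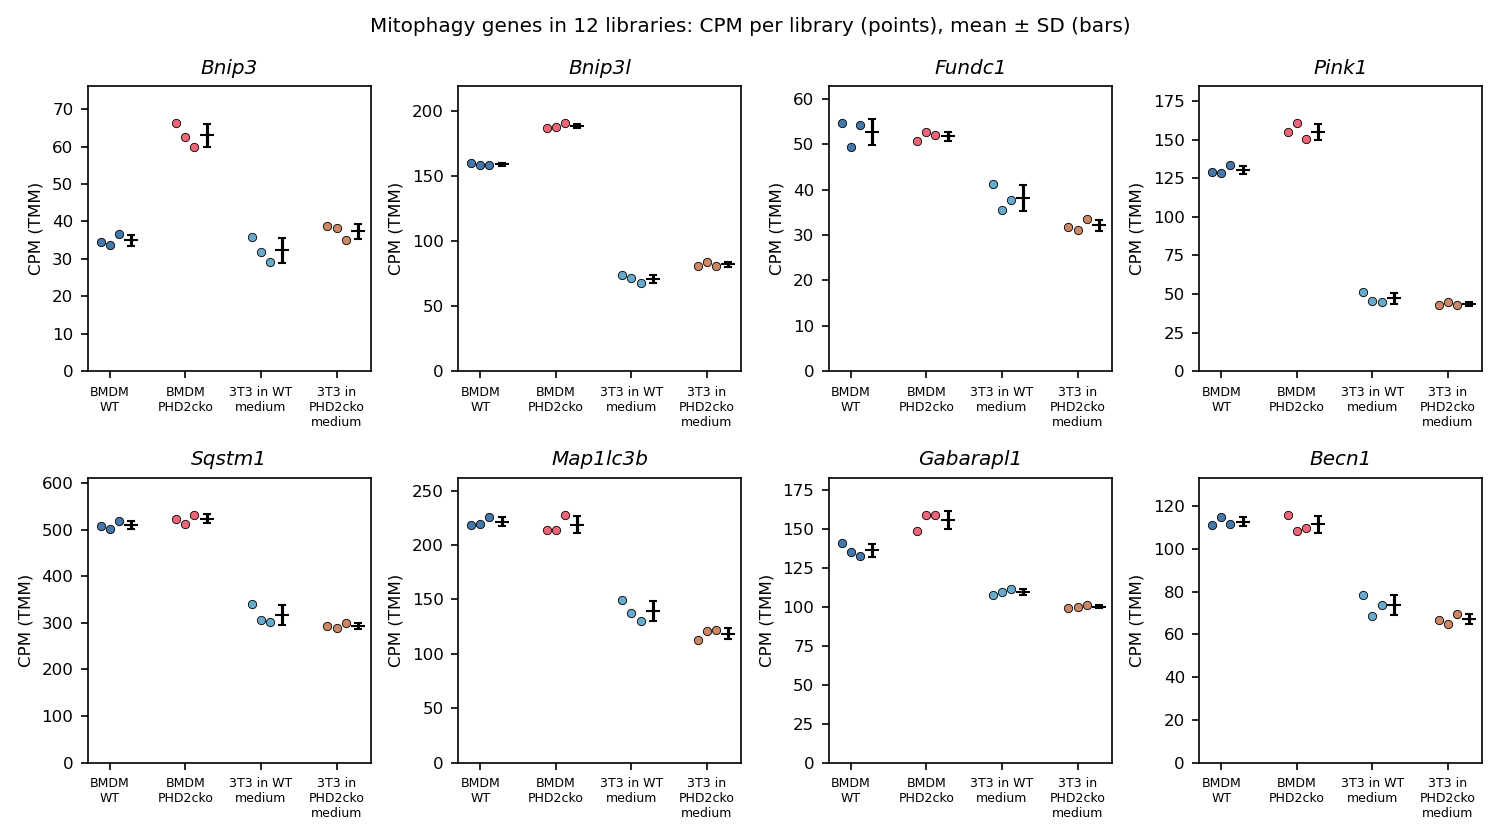
CPM of the 8 genes in each of the 12 libraries (points; y axes start at 0 and differ between panels), with the mean and SD of each group beside them. In BMDMs, the points of Bnip3, Bnip3l, Pink1 and Gabarapl1 labelled PHD2cko lie above all WT points. For 7 of the 8 genes, all points of 3T3 cells in WT medium lie below those of WT BMDMs.

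A further 101 genes were tested in 11 lists of mitophagy, autophagy and mitochondrial genes, among them the 13 mRNAs of mitochondrial DNA. Of these 101 genes, 1 was higher and 2 were lower in the BMDM libraries labelled PHD2cko at an adjusted p under 0.05 (edgeR). This is 2.97% of the 101 genes, beside 6.73% of all genes. In a fit of the BMDM libraries alone these counts were 8 and 9, which is 16.8% beside 20.6% of all genes. Without fibroblast replicate 1 in WT medium, which enters the shared estimate of the spread, they were 6 and 7, which is 12.9% beside 13.0% of all genes. Among 7 cargo adaptors, Optn, which encodes the ubiquitin-binding adaptor optineurin, rose from 18.0 ± 1.27 to 24.3 ± 0.921 CPM (SD, n = 3 each), which is 0.44 on the log2 scale (adjusted p = 0.00714, edgeR). Among 10 genes of the beclin and class III PI3 kinase complexes, Uvrag, a beclin 1 partner, fell by 0.22 on the log2 scale (adjusted p = 0.0497, edgeR). That call was lost without any 1 of the 6 BMDM libraries, with adjusted p between 0.0986 and 0.193, with a replicate block (0.0665) and when genes were not filtered (0.0803, all edgeR). Among 8 transcription factors of autophagy genes, Hif1a fell from 113.0 ± 1.79 to 97.3 ± 0.875 CPM (log2 fold change -0.22, adjusted p = 0.00706, edgeR). Of the 7 listed mitophagy receptors that were tested, Bnip3 and Bnip3l passed. Of the 16 genes of the PINK1 and Parkin route Pink1 alone passed, and of the 5 ATG8 genes Gabarapl1 alone. Without fibroblast replicate 1 in WT medium, edgeR called 2 cargo adaptors, 2 genes of the beclin and class III PI3 kinase complexes, 2 genes of the PINK1 and Parkin route and 2 ATG8 genes.

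No gene passed in the lists of the ULK1 complex (5 genes), ATG lipidation (18), fusion with the lysosome (12), mitochondrial fission and fusion (8) and mRNAs of mitochondrial DNA (13). These lists were put together because edgeR called none of their genes, so the 0 in their 56 genes follows from that choice. At an unadjusted p under 0.05 edgeR found 8 of the 56, beside 2721 of all 14285 genes. DESeq2 and limma-voom each called 3 of the 56, beside 7.83% and 7.46% of all genes. In the fit of the BMDM libraries alone edgeR called 7 of the 56, 3 higher and 4 lower, of which 3 lower genes were mRNAs of mitochondrial DNA. Without fibroblast replicate 1 in WT medium it called 6, 3 higher and 3 lower. All 13 mRNAs of mitochondrial DNA, which encode subunits of the respiratory chain, had a log2 fold change below 0, with a median of -0.09, which was -0.14 without BMDM replicate 3 labelled PHD2cko. For comparison, 7 of 8 HIF targets listed beside these genes rose, among them Ankrd37 by 4.01, Egln3 by 1.96 and the pyruvate dehydrogenase kinase Pdk1 by 0.96 on the log2 scale, and 0 fell. Bnip3, at 0.85, lay within the range of these targets, and the other 3 mitophagy genes that rose lay below the smallest of the 7, 0.46 for Slc2a1.

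The second question was how the genes responded in fibroblasts to medium from BMDMs labelled PHD2cko. Of the 8 genes, Bnip3l rose, Fundc1 and Map1lc3b fell, and 5 did not pass the test, where 15.7% of all genes passed it, 8.93% higher and 6.75% lower. In PHD2cko medium 1 gene had all libraries above and 5 had all libraries below those in WT medium, where 31.9% of all genes did not overlap in either direction. The median log2 fold change was -0.12 over the 8 genes and -0.0046 over all genes. The median over the 8 genes was -0.048 without WT medium replicate 1, the library that stood apart. When the 6 fibroblast libraries were fitted alone, none of the 3 genes passed, with adjusted p of 0.0519 for Bnip3l, 0.0957 for Fundc1 and 0.0943 for Map1lc3b (edgeR), and 5 of the 8 had an unadjusted p under 0.05.

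Bnip3l was at 74.0, 71.2 and 68.0 CPM in WT medium and at 81.1, 84.1 and 80.6 CPM in PHD2cko medium, without overlap. Its log2 fold change was 0.20 (SE 0.0424, adjusted p = 0.00626, edgeR). Bnip3 was at 35.8, 31.7 and 29.2 CPM in WT medium and at 38.7, 38.3 and 35.1 CPM in PHD2cko medium. The groups overlapped through WT medium replicate 1, and the log2 fold change of 0.21 did not pass (SE 0.0735, adjusted p = 0.0722, edgeR). Without that library it was 0.31 and passed (adjusted p = 0.00679, edgeR). Fundc1 was at 41.2, 35.5 and 37.7 CPM in WT medium and at 31.7, 31.1 and 33.6 CPM in PHD2cko medium. It fell by 0.24 on the log2 scale (SE 0.0629, adjusted p = 0.0201, edgeR), and by 0.16 without WT medium replicate 1, when it no longer passed (adjusted p = 0.0728, edgeR). It was also lost without PHD2cko medium replicate 1 (adjusted p = 0.0752, edgeR) or replicate 2 (0.0623). The receptors thus did not share a direction in fibroblasts.

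Map1lc3b was at 149.5, 137.9 and 130.6 CPM in WT medium and at 112.5, 121.2 and 122.1 CPM in PHD2cko medium. It fell by 0.23 on the log2 scale (SE 0.0564, adjusted p = 0.0150, edgeR), and the call was lost without PHD2cko medium replicate 1 (adjusted p = 0.0774, edgeR). Gabarapl1 was at 107.8, 109.3 and 111.2 CPM in WT medium and at 99.4, 99.5 and 101.2 CPM in PHD2cko medium. Its groups did not overlap and varied little, but its log2 fold change of -0.13 did not pass (adjusted p = 0.0602, edgeR). It passed with limma-voom (adjusted p = 0.0446) and in edgeR without WT medium replicate 1 (0.0484).

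Pink1 was at 51.1, 45.2 and 45.1 CPM in WT medium and at 42.9, 44.8 and 42.8 CPM in PHD2cko medium, a log2 fold change of -0.12 (95% interval -0.24 to 0.0042, adjusted p = 0.187, edgeR). Sqstm1 was at 340.8, 306.3 and 302.8 CPM in WT medium and at 292.8, 288.0 and 300.4 CPM in PHD2cko medium (log2 fold change -0.11, adjusted p = 0.203, edgeR). Both genes had all libraries in PHD2cko medium below those in WT medium by a small margin, and did not pass the test. These changes shrank to -0.03 for Pink1 and -0.03 for Sqstm1 without WT medium replicate 1 (adjusted p of 0.666 and 0.635, edgeR). Becn1 was at 78.3, 68.8 and 73.8 CPM in WT medium and at 66.9, 65.0 and 69.5 CPM in PHD2cko medium, with overlap (log2 fold change -0.13, adjusted p = 0.115, edgeR), and passed without WT medium replicate 2 (-0.18, adjusted p = 0.0450, edgeR). It was smaller, at -0.06, without WT medium replicate 1 (adjusted p = 0.397, edgeR). WT medium replicate 1 held the highest value of its group for 7 of the 8 genes.

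RNA of macrophage type was present in the fibroblast libraries and differed with the medium. All 23 macrophage markers had counts in both groups, and their sum was 28.2 to 29.7 CPM in WT medium and 229.8 to 1020 CPM in PHD2cko medium. Set against BMDMs of the same label, this was a share of 0.0603 to 0.0636% in WT medium and of 2.41, 0.544 and 2.16% in replicates 1, 2 and 3 in PHD2cko medium. The Wilson 95% interval of replicate 1 was 2.38 to 2.45%, which covers counting error only, and in bulk libraries fewer cells of a type and less RNA per cell cannot be told apart. At these shares, BMDM RNA would account for 1.54 to 7.08% of the Pink1 count, 0.996 to 4.54% of the Bnip3l count and 0.731 to 3.19% of the Bnip3 count in PHD2cko medium. The share depended on the markers used. From the 4 markers with at most 3 counts in every library in WT medium, it was 0.0207 to 0.0286% in WT medium and 3.92, 0.744 and 3.48% in replicates 1, 2 and 3 in PHD2cko medium. BMDM RNA would then account for 2.11 to 11.5% of the Pink1 count, 1.36 to 7.37% of the Bnip3l count and 1.00 to 5.17% of the Bnip3 count in PHD2cko medium. The low 4-marker share in WT medium follows from how the markers were chosen and rests on 5 or 6 counts per library. With either share subtracted from every fibroblast library, Bnip3l, Fundc1 and Map1lc3b still passed and no other of the 8 genes did. Both subtractions are among 10 alternatives other than leaving a single library out. Over these 10 the log2 fold change ran from 0.19 to 0.22 for Bnip3l. It ran from -0.25 to -0.23 for Fundc1 and from -0.24 to -0.22 for Map1lc3b. The log2 fold change of Pink1 was -0.15 with the first share subtracted and -0.18 with the 4-marker share (adjusted p of 0.104 and 0.0740, edgeR).

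**Figure D3:**
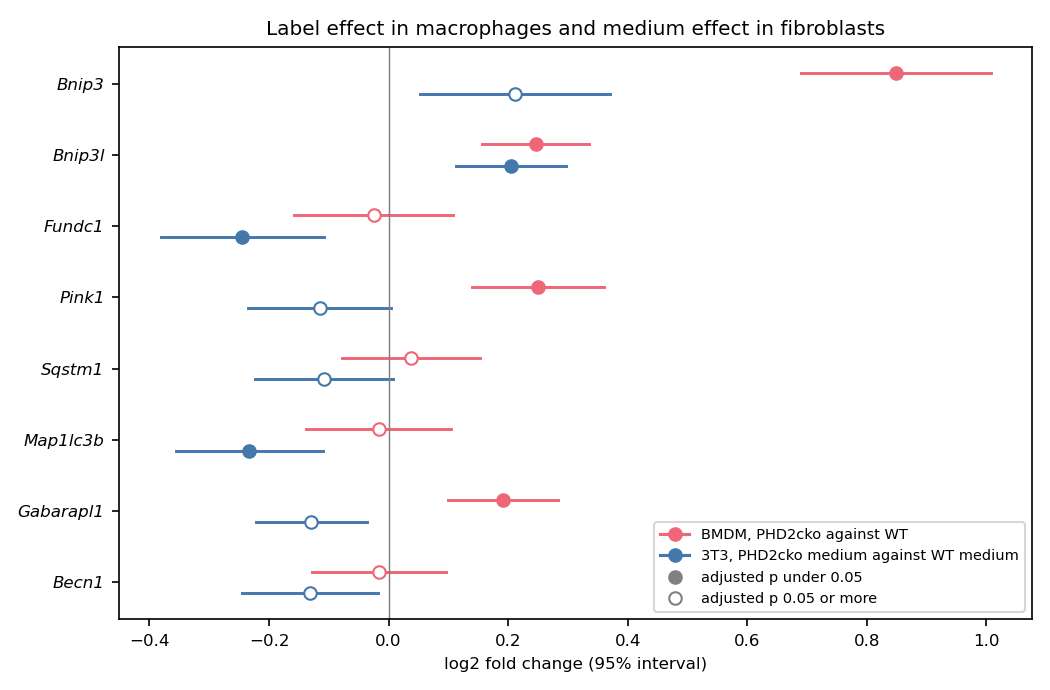
Log2 fold change (x axis) with its 95% interval for the 8 genes, in BMDMs labelled PHD2cko against WT (red) and in 3T3 cells in PHD2cko medium against WT medium (blue); filled points have an adjusted p under 0.05 in edgeR. Bnip3 in BMDMs, at 0.85, lies apart from every other point, and Pink1 and Gabarapl1 lie to the right of 0 in BMDMs and to the left in 3T3 cells.

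Among the 101 further pathway genes, 3 were higher and 10 lower in PHD2cko medium at an adjusted p under 0.05 (edgeR). This is 12.9% of the 101 genes, beside 15.7% of all genes. Without WT medium replicate 1 the counts were 5 and 12, which is 16.8% beside 19.0% of all genes. Without PHD2cko medium replicate 1 they were 1 and 6 (6.93% beside 9.09%), and with the fibroblast libraries alone 1 and 4 (4.95% beside 6.82%). In the ATG8 family, 3 of 5 genes fell and all 5 had a log2 fold change below 0. Map1lc3a, which encodes the LC3B relative LC3A, fell from 50.6 ± 4.72 to 36.5 ± 0.608 CPM (log2 fold change -0.47, adjusted p = 4.6e-04, edgeR), and Gabarap fell from 237.7 ± 30.3 to 191.0 ± 7.30 CPM (-0.32, adjusted p = 0.0156, edgeR). Gabarap no longer passed with the fibroblast libraries alone (adjusted p = 0.0961, edgeR), where Map1lc3a was the 1 ATG8 gene past the threshold, or without PHD2cko medium replicate 3 (0.0761). It passed at a log2 fold change of -0.19 without WT medium replicate 1. Of 18 genes of ATG lipidation and phagophore growth, Atg16l2 fell by 1.08 and Atg12, a ubiquitin-like conjugate partner of ATG5, fell by 0.49 on the log2 scale (adjusted p of 8.1e-05 and 6.0e-05, edgeR), and none rose.

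Of the 16 genes of the PINK1 and Parkin route, the deubiquitinase gene Usp15 rose by 0.21 on the log2 scale (adjusted p = 0.00751, edgeR), and missed the threshold with the fibroblast libraries alone (0.0517). In edgeR without WT medium replicate 1, 3 of these 16 genes were higher and 0 lower. Of the beclin and class III PI3 kinase list, Bcl2, whose protein binds beclin 1, rose from 8.41 ± 0.629 to 12.1 ± 0.375 CPM (log2 fold change 0.52, adjusted p = 0.0222, edgeR). This call was lost without PHD2cko medium replicate 1 (adjusted p = 0.0601, edgeR) or replicate 3 (0.0862). Hif1a rose by 0.14 and Mitf fell by 0.34 among the transcription factors, and Vps11 fell by 0.19 among the genes of fusion with the lysosome. With the fibroblast libraries alone none of these 3 passed, with adjusted p of 0.128 for Hif1a, 0.0606 for Mitf and 0.146 for Vps11 (edgeR). Hif1a was also lost without WT medium replicate 2 or any 1 library in PHD2cko medium, with adjusted p between 0.0757 and 0.104, with a replicate block (0.0665) and when genes were not filtered (0.108, all edgeR). Vps11 was lost without WT medium replicate 1 or 3 or PHD2cko medium replicate 2 or 3, with adjusted p between 0.0662 and 0.127, and when genes were not filtered (0.0711, all edgeR). Both just missed the threshold without BMDM replicate 3 labelled PHD2cko, which enters the shared estimate of the spread (adjusted p of 0.0512 for Hif1a and 0.0511 for Vps11, edgeR). Mitf fell by 0.52 with the 4-marker macrophage share subtracted. In edgeR no gene passed among 7 cargo adaptors, 5 genes of the ULK1 complex and 8 of mitochondrial fission and fusion, where 0, 1 and 2 genes had an unadjusted p under 0.05. DESeq2 called none of these 3 lists' genes, and limma-voom 1, in the last of them. Without WT medium replicate 1, edgeR called 1 gene lower in each of the last 2 lists.

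Of the 13 mRNAs of mitochondrial DNA, mt-Co1, mt-Co2, mt-Co3 and mt-Atp6 fell by between 0.24 and 0.32 on the log2 scale, and all 13 had a log2 fold change below 0, with a median of -0.19. Without PHD2cko medium replicate 1, none of the 13 passed in edgeR and 5 had an unadjusted p under 0.05, and with the fibroblast libraries alone 1 passed. With all libraries, DESeq2 called 7 and limma-voom 5 of the 13, each of them lower. All 4 calls were also lost without PHD2cko medium replicate 3, with adjusted p of 0.0701, 0.0595, 0.102 and 0.0552 for mt-Co1, mt-Co2, mt-Co3 and mt-Atp6 (edgeR). Without a single library in WT medium, mt-Co1 was lost for replicate 2 or 3 (0.0717 and 0.0522) and mt-Co3 for replicate 1 or 2 (0.0753 and 0.0638, edgeR). Without replicate 1 in WT medium the log2 fold change was -0.18 for mt-Co2 and -0.15 for mt-Co3. The call of mt-Co3 was also lost with a replicate block (adjusted p = 0.0628), with the stricter filter (0.0545), when genes were not filtered (0.05004) and with the 4-marker share subtracted (0.0612, all edgeR). Of the 8 HIF targets, Pdk1 rose by 0.38 and Pgk1 by 0.31, and Ddit4 fell by 0.33 on the log2 scale. With the fibroblast libraries alone, Pdk1 was the 1 target higher and 0 were lower in edgeR (adjusted p of 0.0503 for Pgk1 and 0.0657 for Ddit4). Ddit4 was also lost without PHD2cko medium replicate 2 or 3 (adjusted p of 0.0643 and 0.122, edgeR) and with the 4-marker macrophage share subtracted (0.0655). Without WT medium replicate 1 the count rose to 5 higher and 1 lower, while DESeq2 called 3 and limma-voom 4 higher, each with 1 lower.

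**Figure D4:**
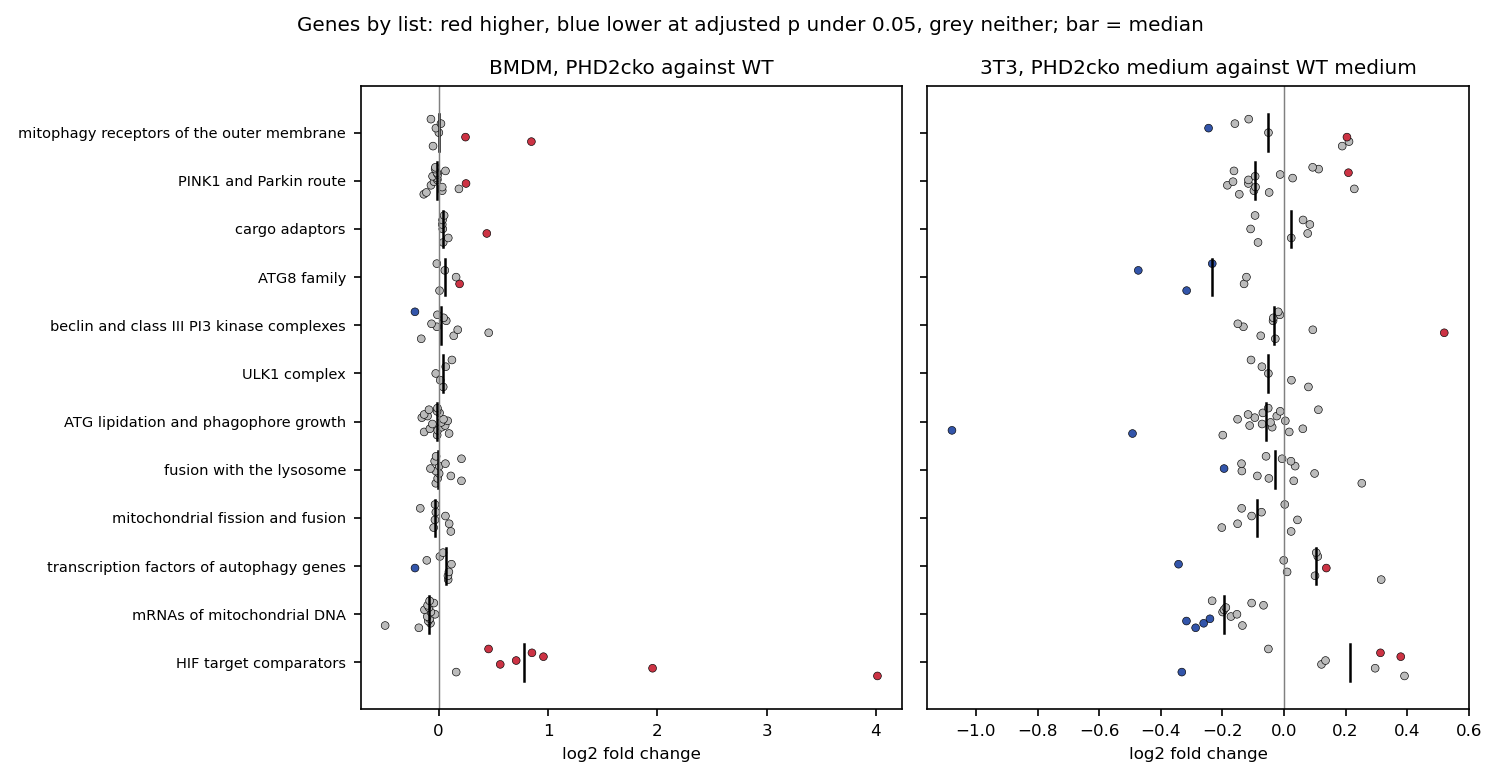
Log2 fold change (x axis, scaled separately in each panel) of every tested gene of the 11 lists and of the HIF targets, in BMDMs (left) and in 3T3 cells (right). Red genes are higher and blue genes lower at an adjusted p under 0.05 in edgeR, and the bar is the median of the list. HIF targets lead in BMDMs, up to 4.01 for Ankrd37, and in 3T3 cells 3 ATG8 genes and 4 mRNAs of mitochondrial DNA are blue.

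The label effect in BMDMs and the medium effect in fibroblasts were compared as a contrast of the same fit, in which each has its own WT libraries. The medium effect was smaller than the label effect by 0.64 on the log2 scale for Bnip3 (SE 0.104, adjusted p = 0.00144, edgeR). The difference was -0.37 for Pink1 (SE 0.0751, adjusted p = 0.00644) and -0.32 for Gabarapl1 (SE 0.0605, adjusted p = 0.00378, edgeR). For these 3 of the 8 genes the 2 effects differed, where 12.3% of all genes passed this test. Cell type and treatment (label or medium) change together in the contrast and cannot be told apart. Bnip3l differed by -0.04, with an interval of -0.17 to 0.09 (adjusted p = 0.733, edgeR). That interval is wide beside its changes of 0.25 in BMDMs and 0.20 in fibroblasts. It does not settle whether the 2 changes were of like size. The differences for Fundc1 and Map1lc3b were both -0.22 (adjusted p of 0.134 and 0.103, edgeR), and those for Sqstm1 and Becn1 were -0.15 and -0.12 (0.253 and 0.364). These 4 differences were smaller without WT medium replicate 1, at -0.14 for Fundc1, -0.14 for Map1lc3b, -0.07 for Sqstm1 and -0.04 for Becn1.

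In WT libraries, 7 of the 8 genes were lower in fibroblasts than in BMDMs, where 40.4% of all genes were lower and 44.9% higher at an adjusted p under 0.05 (edgeR). Cell type, time in culture and medium differ together here and cannot be told apart. The log2 difference was -1.47 for Pink1, -1.16 for Bnip3l, -0.69 for Sqstm1, -0.67 for Map1lc3b, -0.61 for Becn1, -0.47 for Fundc1 and -0.31 for Gabarapl1, with adjusted p of at most 1.3e-05 (edgeR). Bnip3 was the exception at -0.12 (95% interval -0.28 to 0.05, adjusted p = 0.163, edgeR). Without WT medium replicate 1 it was -0.18 and passed (adjusted p = 0.0231, edgeR), and without WT medium replicate 3 it was -0.05 (0.534). The order of groups for Bnip3 was BMDM PHD2cko at 63.0 ± 3.13, 3T3 in PHD2cko medium at 37.4 ± 1.99, BMDM WT at 34.9 ± 1.45 and 3T3 in WT medium at 32.2 ± 3.35 CPM (SD, n = 3 each). Neighbours among the last 3 groups differed by less than the sum of their SDs, and the first group lay apart from them.

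Between genes, levels were compared as CPM per kilobase of the summed exons in GENCODE. In WT BMDMs, Sqstm1 stood highest at 151.7 ± 2.59, followed by Gabarapl1 at 67.6 ± 2.14, Pink1 at 48.8 ± 1.01, Bnip3l at 41.1 ± 0.220, Map1lc3b at 29.4 ± 0.546, Fundc1 at 22.4 ± 1.25, Becn1 at 15.9 ± 0.305 and Bnip3 at 15.4 ± 0.640 CPM per kilobase. The neighbours Becn1 and Bnip3 differed by less than the SD of Bnip3. In the libraries labelled PHD2cko, Bnip3 moved from rank 8 to rank 6 at 27.8 ± 1.38 CPM per kilobase, between Map1lc3b at 29.1 ± 1.06 and Fundc1 at 22.0 ± 0.416. Sqstm1 was first and Gabarapl1 second in all 4 groups on this scale. The place of Map1lc3b depended on the length used, since per kilobase of its longest protein-coding transcript it was second in WT BMDMs, at 84.0 CPM per kilobase.

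Across the 12 libraries, the genes most like Bnip3 by Pearson correlation of log2 CPM were Pdk1 (r = 0.970), Egln1 (0.951), the glycolytic enzyme gene Pgam1 (0.947), Narf (0.937) and Hpgd (0.933), over genes with a mean of at least 1 CPM. The points fall into 4 groups and share library, depth and the label difference in BMDMs, so these values are a description. Pdk1, for example, was at 61.4 CPM in WT BMDMs, 119.2 CPM in those labelled PHD2cko, 55.7 CPM in fibroblasts in WT medium and 72.5 CPM in PHD2cko medium. Among the other 7 mitophagy genes, r with Bnip3 was between 0.464 for Fundc1 and 0.696 for Bnip3l.

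Some of these genes have near-identical copies or neighbours. Processed pseudogenes of Bnip3, Bnip3l and Map1lc3b in the table held at most 5 counts in any library, and adding their counts to the parent gene changed no call among the 8 genes. On the opposite strand, exons in GENCODE overlap between Becn1 and Cntd1 over 3104 bases, Sqstm1 and Mrnip over 580, Gabarapl1 and 1700101I11Rik over 570, Bnip3 and Gm45507 over 504, and Map1lc3b and Zcchc14 over 58 bases. Cntd1 held 5 to 46 counts. On the same strand, Pink1 contains the miRNA genes Mir7019 and Gm27646, with 69 and 110 bases within its exons. Map1lc3b lies within Gm20388 and Gabarapl1 contains Gm44243 on the same strand, and these share 0 exon bases with them. Whether the counting used strand is not given in the sources used here, so reads from the overlapping exons cannot be assigned to one gene with certainty.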

How the data were processed

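PolyA RNA of 12 libraries was sequenced as single reads on an Illumina NextSeq system. The authors made estimated counts with Kallisto (version not stated) on GRCm38, summed them to gene symbols and deposited them as whole numbers without normalization. How the estimates became whole numbers is not given in the sources used here. The table holds 32544 genes, and 0 columns could not be mapped to a sample.

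The filter filterByExpr, given the 4 groups, kept 14285 genes and left out 18259. Libraries were scaled by TMM, and all 12 were fitted with edgeR 4.0.16 in R 4.3.3. Quasi-likelihood tests were two-sided, p-values were adjusted by the Benjamini-Hochberg method across the kept genes, and the threshold was 0.05. CPM are counts over the TMM-scaled library size. Correlations used log2 CPM with a prior count of 2. The macrophage share is the summed CPM of 23 markers over that in BMDMs of the same label. Alternatives were DESeq2 1.42.0 (its size factors in edgeR, and its Wald test), limma 3.58.1 with voom, a stricter filter (10 counts or more throughout), a looser one (1 count), a fit of the 6 libraries of one cell type, a replicate block, pseudogene counts added, the macrophage share subtracted, each library left out, and another gene length. Pathway list counts without single fibroblast libraries, and a macrophage share from the 4 markers nearly absent in WT medium, were chosen after seeing the data.

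All 8 genes are named, and in each list at most 3 genes per comparison and direction with the largest change past the threshold, besides the 5 genes most correlated with Bnip3. mt-Co3 and Slc2a1 fell outside this rule and were named after their values were seen. The genes and lists were chosen with earlier results of these data known. Of 8 listed mitophagy receptors, 7 were found by symbol. Positions come from GENCODE on GRCm38 and promoter windows from RefSeq on GRCm38.p6. The pipeline was tested on simulated counts with no outlying library. For the fibroblast comparison they held no macrophage RNA that differed with the medium, so the test does not cover these features. A further part of the genetic background, shared by all BMDM groups, is not reported here.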

Additional observations from a re-analysis of the deposited data

Results flagged for a closer look

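For 3 of the 8 genes, the medium effect in fibroblasts differed from the label effect in BMDMs in a test of the difference itself, which 12.3% of all genes passed. The difference on the log2 scale was -0.64 for Bnip3, -0.37 for Pink1 and -0.32 for Gabarapl1, with adjusted p of 0.00144, 0.00644 and 0.00378 (quasi-likelihood test of edgeR, Benjamini-Hochberg adjusted). In BMDMs all 3 libraries labelled PHD2cko lay above WT for each of the 3 genes, while in fibroblasts Pink1 and Gabarapl1 had all libraries in PHD2cko medium below those in WT medium. In each of these comparisons, the groups of 31.9% of all genes did not overlap. For Pink1 the gap was small, from 44.8 CPM at the highest in PHD2cko medium to 45.1 CPM at the lowest in WT medium. Without WT medium replicate 1, the log2 fold change of Pink1 in fibroblasts was -0.03 (adjusted p = 0.666, edgeR).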

How the results depend on the processing

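In edgeR with all 12 libraries, 4 of the 8 genes passed in BMDMs and 3 in fibroblasts. The calls of Bnip3, Bnip3l and Pink1 in BMDMs and of Bnip3, Pink1 and Gabarapl1 for the difference between the label and medium effects held under every alternative run. Of 512 recomputed fold changes of the 8 genes, 488 kept their direction and their side of the threshold. With the 6 libraries of a cell type alone, the count over all genes went from 961 to 2534 in BMDMs and from 2240 to 912 in fibroblasts, and 0 of the 8 genes passed in fibroblasts. When single libraries of the cell type compared were left out, the counts over all genes ran from 527 to 664 in BMDMs and from 1260 to 2757 in fibroblasts. The BMDM count was 1889 without WT medium replicate 1 of the fibroblasts and 931 without PHD2cko medium replicate 1. In the runs without a fibroblast library, from 1 to 4 of the 8 genes passed in fibroblasts, with 1, Bnip3l, without PHD2cko medium replicate 1. Log2 fold changes that crossed 0 when a library was left out were all small. In BMDMs they ran from -0.0702 to 0.0020 for Fundc1, from -0.0444 to 0.0050 for Becn1 and from -0.0475 to 0.00052 for Map1lc3b. The difference between the label and medium effects ran from -0.0723 to 0.0081 for Bnip3l. The cause was not tested.

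The groups share replicate numbers, but libraries with the same number did not deviate together, with correlations between -0.0222 and 0.0199 in BMDMs and between -0.0497 and 0.0242 in fibroblasts. With a replicate block, 815 genes passed in BMDMs and 1953 in fibroblasts, and 4 and 3 of the 8 genes. The block changed no call among the 8 genes. The 8 genes held at least 531 counts in every library. The counting error this gives, as a coefficient of variation, was 1.08 to 4.22%. It was at or above the observed spread between libraries in 11 of 32 combinations of gene and group. Each observed spread rests on 3 libraries, and whether depth limited the precision there was not tested.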
